A study of Mus musculus with 16 samples.

Results

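Among 127112 autosomal 10-kb bins of the mouse genome, 934 (0.735%) were more methylated in both groups of adult oocytes than in both groups of prepubertal origin, by at least 15 percentage points. The bins lay on the GRCm38 build, started at multiples of 10000 bases, and had at least 10 CpG methylation calls in each of 16 libraries, out of 246285 autosomal bins in all. A bin's value in a library was the percentage of its calls that were methylated, and its value in a group was the mean over the libraries. A bin was kept when the lower adult mean exceeded the higher prepubertal-origin mean by the limit, and this difference is called the gap. The 4 group values chose the bins, so their levels and gaps are described here without a test.

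The libraries were made by post-bisulphite adapter tagging (PBAT), a bisulfite sequencing method for small amounts of DNA, from pools of metaphase II (MII) oocytes of C57BL/6J X CBA/Ca F1 females. IFC was in vitro follicle culture (4 pools): preantral follicles were taken from prepubertal females and the oocytes matured in the dish, with an age of 23 days in the labels, which counts the days of culture. SO was superovulation of prepubertal 23-day-old females (5 pools), SOA superovulation of 10-week-old adults (4 pools), and IV natural ovulation of 10-week-old females without hormones (3 pools). The prepubertal females received a lower dose of the same gonadotropins than the adults, so that age and dose cannot be told apart between SO and SOA, and IFC differed from IV in age, culture and hormones together. Each library is 1 pool of oocytes from several females, so the spread given is that between pools. No group was followed over time, so a higher adult value is a difference between animals and not a gain measured in the same oocytes.

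Oocytes gain most of their DNA methylation while they grow, through the de novo methyltransferase DNMT3A and its partner DNMT3L. The methylation falls largely in transcribed gene bodies, which alternate with broad unmethylated domains, so that most of the genome of a mature oocyte is either nearly fully methylated or nearly unmethylated. A bin at an intermediate level may hold, among other possibilities, a boundary between such domains or a domain that is methylated on only some of the DNA molecules in the pool. These were not told apart here.

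To show the DNA behind these values, 5 windows of 300 bases were taken from the bins with the largest gap in each of the 5 clusters that held the most of the 934 bins. In each bin the window was the one outside exons with the most CpG positions covered in at least 8 libraries. All are from the forward strand of GRCm38 (RefSeq sequence), and capitals mark the CpGs, the dinucleotides at which methylation was called.
Msi2, chr11:88572181-88572480: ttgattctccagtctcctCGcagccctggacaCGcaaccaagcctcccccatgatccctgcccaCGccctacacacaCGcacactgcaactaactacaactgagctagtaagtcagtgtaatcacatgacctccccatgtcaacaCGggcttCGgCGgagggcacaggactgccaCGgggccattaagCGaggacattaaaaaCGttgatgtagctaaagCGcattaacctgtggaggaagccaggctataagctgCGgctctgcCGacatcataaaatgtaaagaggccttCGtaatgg
Rbm47, chr5:66099001-66099300: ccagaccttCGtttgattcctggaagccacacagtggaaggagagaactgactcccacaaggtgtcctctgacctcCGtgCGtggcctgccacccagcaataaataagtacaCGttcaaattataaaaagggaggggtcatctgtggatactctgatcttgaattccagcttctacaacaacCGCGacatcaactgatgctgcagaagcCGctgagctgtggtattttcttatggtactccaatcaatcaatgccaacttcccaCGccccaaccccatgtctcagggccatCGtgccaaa
beyond the end of Fer1l6, chr15:58726551-58726850: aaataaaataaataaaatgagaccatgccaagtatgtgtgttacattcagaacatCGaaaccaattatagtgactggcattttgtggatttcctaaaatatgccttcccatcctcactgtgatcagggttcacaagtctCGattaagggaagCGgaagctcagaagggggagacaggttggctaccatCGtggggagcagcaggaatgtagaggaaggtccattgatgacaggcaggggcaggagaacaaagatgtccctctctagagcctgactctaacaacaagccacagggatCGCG
Akap6, chr12:52889461-52889760: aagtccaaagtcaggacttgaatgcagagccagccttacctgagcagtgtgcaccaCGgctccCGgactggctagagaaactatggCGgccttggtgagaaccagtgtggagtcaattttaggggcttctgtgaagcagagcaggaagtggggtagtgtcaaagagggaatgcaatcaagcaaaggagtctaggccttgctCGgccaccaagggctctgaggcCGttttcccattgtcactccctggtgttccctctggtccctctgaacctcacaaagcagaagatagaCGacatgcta
no coding gene, chr11:109008371-109008670: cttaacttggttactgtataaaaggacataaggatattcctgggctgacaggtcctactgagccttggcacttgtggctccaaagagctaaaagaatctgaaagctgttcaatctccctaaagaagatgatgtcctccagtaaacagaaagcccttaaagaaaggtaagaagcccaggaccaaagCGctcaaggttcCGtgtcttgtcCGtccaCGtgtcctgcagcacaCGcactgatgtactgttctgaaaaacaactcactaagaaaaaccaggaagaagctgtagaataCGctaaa

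The Msi2 window held 14 CpGs and lies in the body of Msi2, which encodes an RNA-binding protein of the Musashi family that controls translation in stem cells. Over all calls of a group, it was 34.5% methylated in IFC (95% Wilson interval 23.6 to 47.3%, 58 calls) and 35.7% in SO (24.5 to 48.8%, 56 calls). In SOA it was 97.2% methylated (85.8 to 99.5%, 36 calls) and in IV 95.3% (84.5 to 98.7%, 43 calls). The Rbm47 window, with 9 CpGs, was 25% methylated in IFC on only 8 calls (7.15 to 59.1%) and 15% in SO (7.06 to 29.1%, 40 calls), against 100% in SOA (78.5 to 100%, 14 calls) and 90.9% in IV (78.8 to 96.4%, 44 calls). The window beyond Fer1l6 went from 29.6% in IFC and 19.2% in SO to 72.2% in SOA and 91.7% in IV, on 27, 26, 18 and 12 calls. In the Akap6 window the values were 16.7% (IFC), 23.1% (SO), 55.6% (SOA) and 75% (IV), on 12, 26, 18 and 20 calls, and the SOA interval (33.7 to 75.4%) overlapped those of IFC (4.70 to 44.8%) and SO (11.03 to 42.1%). The window without a coding gene read 14.3% (IFC), 36.8% (SO), 64.5% (SOA) and 72.0% (IV), on 14, 38, 31 and 25 calls, and the SO interval (23.4 to 52.7%) overlapped those of SOA (46.9 to 78.9%) and IV (52.4 to 85.7%). These intervals take every call as independent. Calls on the same read are not, and reads without molecular identifiers are not independent molecules. The intervals also leave out the spread between pools, so they are too narrow to compare the groups by.

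Averaged over the 934 bins, methylation was 32.4% ± 1.44 in IFC (SD, n = 4) and 39.96% ± 5.21 in SO (n = 5), against 65.0% ± 3.57 in SOA (n = 4) and 64.1% ± 2.67 in IV (n = 3). Over all eligible bins the same means were 42.2%, 42.3%, 42.3% and 42.8%, which lie close to each other. The IFC pools stood at 33.3, 32.7, 33.4 and 30.3%. The SO pools spread more widely, at 41.2, 40.1, 47.8, 36.4 and 34.3%. SOA pools stood at 70.0, 65.0, 63.7 and 61.5%, and IV pools at 66.98, 63.6 and 61.7%. No prepubertal-origin pool reached an adult one, and SO3 was the highest of them. The within-group SD of a single bin had a median of 8.59 points.

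**Figure D1:**
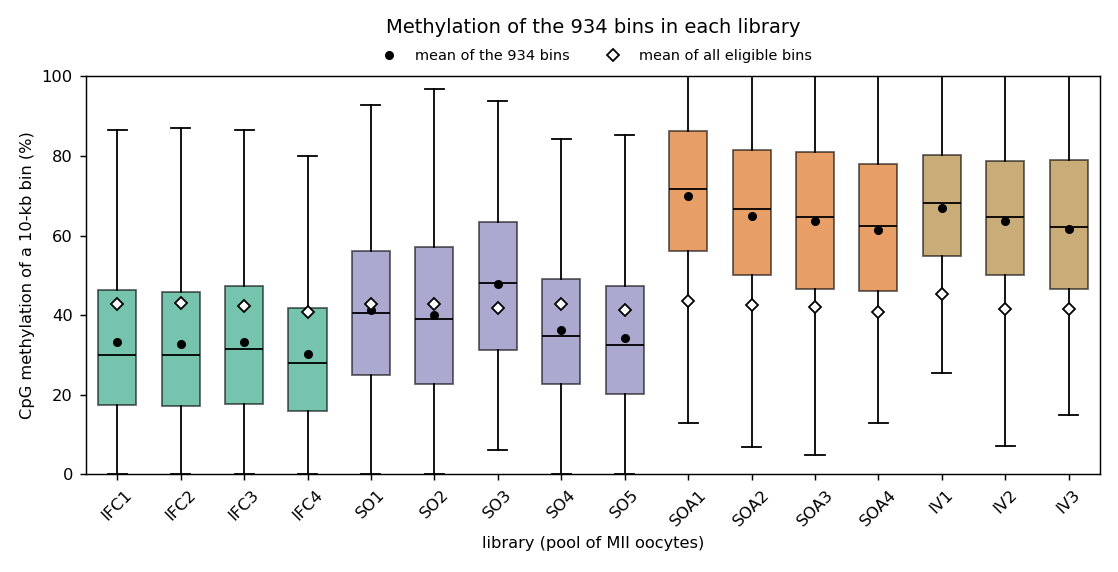
Methylation (%) of the 934 bins in each of the 16 libraries. Boxes span the lower to the upper quartile of the bins with the median as a line, whiskers reach the farthest bin within 1.5 box lengths, black dots are means and diamonds the means of all eligible bins. The adult means lie between 61.5 and 70.0%, the prepubertal-origin means between 30.3 and 47.8%, and the diamonds between 40.8 and 45.3%.

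The gap had a median of 19.8 points (quartiles 16.9 and 24.99), reached 20 points in 451 bins, 30 points in 94 and 40 points in 11, and was at most 50.1. The 10 bins just inside the limit had gaps of 15.02 to 15.05 points and means of 38.4% (IFC), 43.2% (SO), 61.9% (SOA) and 62.1% (IV). The 10 just outside had gaps of 14.96 to 14.99 points and means of 38.6%, 46.6%, 66.1% and 63.6%. In 385 of the 934 bins (41.2%) all 7 adult libraries were above all 9 of prepubertal origin, against 0.401% of all eligible bins. This count rests on the values that chose the bins. The limit turned around, with the lower of IFC and SO above the higher of SOA and IV, was met by 969 bins (0.762%), about as many. They are called the reverse bins below, and had means of 62.9% (IFC), 60.1% (SO), 34.3% (SOA) and 33.7% (IV).

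**Figure D2:**
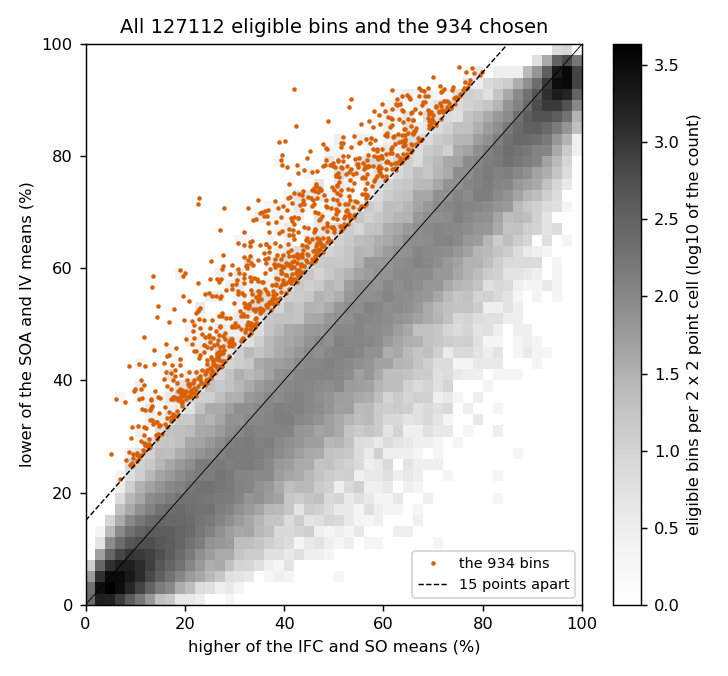
Each eligible bin by the higher of its IFC and SO means (x axis, %) and the lower of its SOA and IV means (y axis, %), in grey as the log10 of the number of bins per cell. The 934 bins (orange) lie on and above the dashed line 15 points over the diagonal, with prepubertal-origin values up to 79.8%, while most eligible bins crowd at both ends of the diagonal.

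In each library 24.9 to 28.7% of the eligible bins were above 80% methylation and 34.5 to 45.3% below 20%, the domain pattern known from oocytes, and no expression of marker genes was measured. The mean over the 4 groups lay between 20 and 80% in 95.5% of the 934 bins, 95.3% of the reverse bins and 29.8% of all eligible bins, and the limit on the gap itself favours such levels. Only 134 were below 20% in both IFC and SO, 181 were above 80% in both SOA and IV, and none was below 20% in both of the first and above 60% in both of the second. In 667 bins both adult means were themselves between 20 and 80%. IFC was below SO in 730 bins (78.2%), by at least 10 points in 323, while SO was below IFC by that much in 15. SOA and IV were within 10 points of each other in 853 bins (91.3%). These comparisons of IFC with SO and of SOA with IV were not counted over all eligible bins, so they describe the 934 bins only.

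By a likelihood-ratio test of a logistic model of the calls, with Benjamini-Hochberg adjustment over all eligible bins, an adjusted p below 0.05 and at least 20 points between group means, 1199 bins (0.943%) were lower in SO than in SOA. They held 656 of the 934 bins, and the 1128 (0.887%) that were higher in SO held 0. In IFC vs IV 2795 bins (2.2%) were lower in IFC and held 811 of the 934, and the 1832 (1.44%) that were higher held 0. These counts restate the choice and nothing is read from them. IFC was lower than SO in 1092 bins (0.859%), which held 99 of the 934 (10.6%), and higher in 457 (0.36%), which held 0 of them. Between SOA and IV the test called 277 bins higher in SOA (0.218%) and 135 lower (0.106%), with 2 and 0 of the 934 among them. The median difference over the 934 bins was -6.24 points for IFC minus SO and 0.94 points for SOA minus IV. Over all eligible bins the same medians were 0.23 and -0.75 points. The likelihood-ratio test takes the calls of pools as independent. The median dispersion in SO vs SOA, the spread between pools over that of counting, was 1.42 over all bins and 2.35 in the 934, and with that spread in the test (a quasi-binomial F test) SO vs SOA fell to 37 calls in both directions together, 5 of them among the 934, and IFC vs IV, IFC vs SO and SOA vs IV had 0 calls each, against 4035, 1369 and 184 at an unadjusted p below 0.05. With limma on the sample percentages, which also takes the spread between pools, SO vs SOA had 536 calls, 181 of them among the 934, IFC vs IV 2007 (505 among the 934), IFC vs SO 119 (2 among the 934) and SOA vs IV 0, the last against 408 at an unadjusted p below 0.05. The balance of directions also depended on the rule. With the adjusted p alone SOA was lower than IV in 8598 bins and higher in 2248, and SO was lower than SOA in 4696 and higher in 6738, the opposite balance to that with the limit of 20 points in both comparisons. SO vs SOA also had more bins higher than lower in SO with the quasi-binomial test (28 and 9) and with limma (290 and 246). Single libraries moved the likelihood-ratio counts. Without SO4, SO5, SOA1 or SOA2 the bins lower in SO than in SOA were 1109, 1047, 1029 and 1183, and those higher 1183, 1214, 1235 and 1297. Without SOA4, SO was lower than SOA in 1810 bins and higher in 1090, and SOA was higher than IV in 785 and lower in 203. Without IFC4, IFC was higher than SO in 741 and lower in 925, and without IV2 or IV3 SOA was lower than IV in 313 or 309.

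A choice made without a library gives a reading in that library that the choice did not use. With each library left out in turn, 828 to 1110 bins met the limit in the other 15. The left-out IFC libraries then read 34.6, 34.2, 34.4 and 31.4%, and the left-out SO libraries 46.0, 43.2, 49.6, 36.9 and 35.2%. For SOA the values were 68.6, 62.0, 60.5 and 59.7%, and for IV 67.4, 60.1 and 58.1%. All 16 fell on the side of their own age group, taking the mean of the 4 group means of the other libraries as the midpoint. SO3 did so by the least, at 49.6% against a midpoint of 49.9%. IV1 stood apart in the series as a whole, with 34.5% of its eligible bins below 20% methylation against 42.2 to 45.3% in the other 15 libraries. The authors suspected that this pool was slightly contaminated with somatic DNA and kept it. What this did to the bins here was not tested. Without IV1, 849 bins met the limit, 782 of them among the 934. Without SO3 the number was 1110, with 914 shared.

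**Figure D3:**
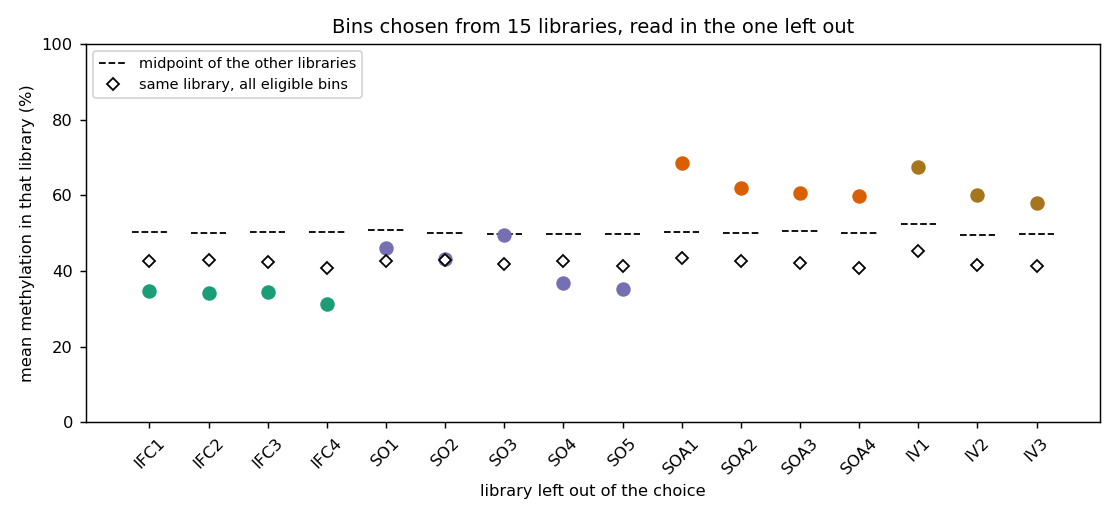
For each library (x axis), the mean methylation (%, y axis) in that library of the bins chosen from the other 15, as a coloured dot. Dashes mark the midpoint of the 4 group means of the others, and diamonds the library's mean over all eligible bins. Prepubertal-origin libraries lie below their dash, SO3 by the least, and adult libraries lie above it.

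Depth was unevenly spread over the groups. The 9 shallow libraries ranged from 5218053 calls (SOA2) to 8231898 (IFC1), and the 7 deep ones from 12126481 (SO5) to 23065411 (SOA4). All IFC libraries were shallow and all IV libraries deep, while SO (2 shallow, 3 deep) and SOA (3 shallow, 1 deep) held both. The shallow libraries thus lack IV, and a choice in them set SOA alone against the higher of IFC and SO. The deep libraries lack IFC, and a choice in them set the lower of SOA4 and IV against SO alone. Neither choice is the rule of the 4 groups, so their counts are not comparable with 934. When the limit was applied in the shallow libraries alone, 2837 bins met it, and in the deep libraries these bins read 44.2, 39.2 and 37.5% in SO3, SO4 and SO5, 49.1% in SOA4, and 53.8, 49.97 and 49.1% in IV1, IV2 and IV3. Every adult value was above every SO value. The adult groups were higher in 69.1% of these bins, against 29.2% of all eligible bins. The limit, between the groups present, was met in 23.3%, against 1.1% of all. Reverse bins chosen in the shallow libraries kept their direction in 77.2% and met the reversed limit in 35.2%. When it was applied in the deep libraries, 1396 of the eligible bins met it, and in the shallow libraries these read 36.9 to 40.9% in IFC, 46.3 and 47.8% in SO and 60.8 to 67.6% in SOA. Here 85.1% of the bins were higher in adults, against 33.9% of all, and 47.4% met the limit between the groups present, against 2.23%. For reverse bins chosen in the deep libraries these shares were 83.4% and 48.4%, so the repeat is not particular to the set. The 934 bins themselves had a median of 893 calls over all libraries, against 927 for all eligible bins.

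The bins ran together along the chromosomes. Of the 934, 432 (46.3%) lay directly beside another, and of the 1476 eligible neighbours of the 934 bins 552 (37.4%) were in the set, where 0.735% of eligible bins were. For the reverse bins the share of neighbours was 34.4%. Of the 1476 eligible neighbours of the 934 bins, 1 (0.0678%) was a reverse bin, where 0.762% of all eligible bins were. Linking bins that started within 50 kb of each other gave 499 clusters, of which 326 held a single bin and 84 held at least 3. These 84 held 430 bins (46.0%), and the 27 clusters of at least 5 held 237. Among chromosomes, the share of eligible bins in the set ran from 0.343% on chromosome 4 to 1.57% on chromosome 15.

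Around the bins the groups differed less, but over a wide distance. At 10 kb upstream on the forward strand, eligible neighbours that were not in the set read 32.5% (IFC), 37.5% (SO), 47.0% (SOA) and 46.8% (IV), and at 150 kb upstream 41.02%, 41.7%, 42.5% and 42.9%. Neighbours 10 kb downstream read 33.7%, 38.7%, 47.4% and 47.3%. The difference therefore continued below the limit of 15 points into the flanking bins and was small at 150 kb. Around the 326 single bins, which by definition have no other bin of the set within 50 kb, the values at 50 kb upstream were 36.9% (IFC), 38.7% (SO), 40.8% (SOA) and 41.1% (IV).

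**Figure D4:**
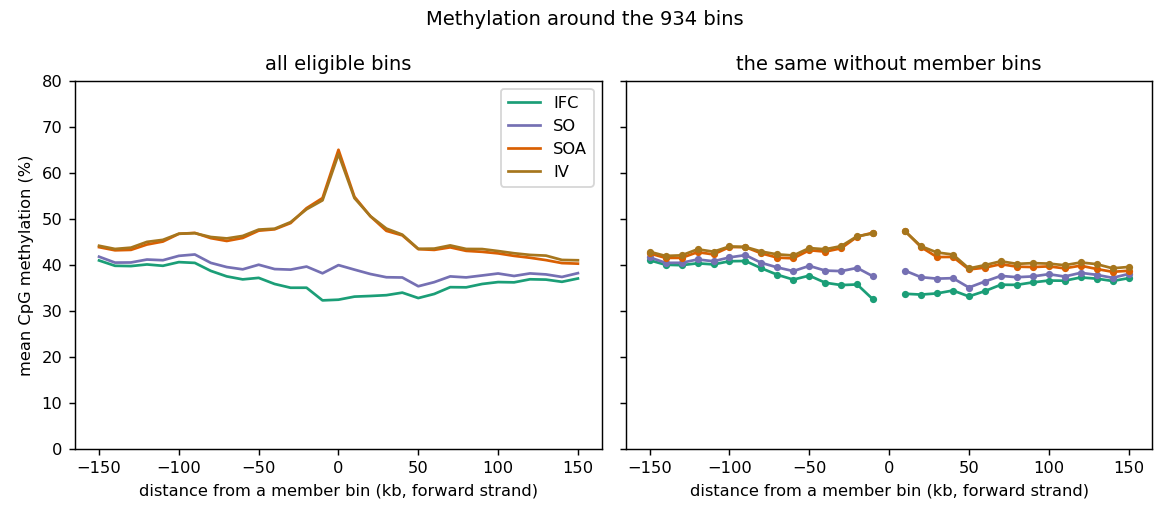
Mean methylation (%, y axis) of eligible bins by distance from a bin of the set (x axis, kb, forward strand) in the 4 groups, with all eligible bins at left and without bins of the set at right. SOA and IV reach 65.0 and 64.1% at the centre, where IFC and SO are at 32.4 and 39.96%, and in the right panel the lines run from 41.02 to 42.9% at 150 kb upstream.

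Fewer of these bins than of the reverse bins lay in genes. Of the 934, 431 (46.1%) overlapped a protein-coding gene (GENCODE M21), against 60.3% of all eligible bins and 83.1% of the reverse bins. Outside all annotated genes lay 363 (38.9%), against 28.5% of eligible and 10.6% of reverse bins, and 11.3% overlapped only long noncoding RNA genes, against 7.81% of eligible bins. With bins of all sets limited to a mean level of 20 to 80%, the share in coding genes was 45.7% of 892 bins, 61.7% of 37903 eligible bins and 83.1% of 923 reverse bins. A coding gene's start lay in 33 bins of the set (3.53%), against 11.8% of eligible bins. The median bin held 0% coding-gene exon bases in the set, and equally among reverse bins and all eligible bins. The longest gene at a bin in a gene had a median length of 155 kb, against 97.0 kb for eligible bins and 238 kb for reverse bins. This median is over bins, so a gene with many bins counts many times. In genes of at least 30 kb, 41.5% of the bins lay in the last of 3 equal parts of the gene, against 35.7% of eligible bins. CpG number (median 95 against 101), GC content (44.4 against 44.3%) and repeat content (21.9 against 23.8%) were close to those of all eligible bins. These shares carry no test, since bins of one cluster are not independent of each other.

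Of 17956 coding genes with an eligible bin, 216 held at least 1 of the 934 bins, 40 at least 3 and 16 at least 5. A reverse bin was found in 369 of the 17956 genes, and 4 annotated genes (Fgfr2, Gm20388, Grid1 and Dtna) held both kinds. Both shares of the genes were small, so few genes would be shared even without any relation, and nothing is read from this count. Fgfr2 and Gm20388 are annotated over 2960.9 and 4434.9 kb, with 271 and 432 eligible bins, and a bin counts for every gene it overlaps. The 2 bins of the set counted for Fgfr2 are also the 2 counted for Cpxm2, which lies within that span. In 13 of the 6755 genes with at least 4 eligible bins, the set took up at least 50% of them. The 12 genes with the most bins were Msi2 (29), Rbm47 (15), Fer1l6 (14), Akap6 (13), Mapk10 and Etl4 (9 each), Frmd4a and Cdh13 (8 each), Camta1 (7), and Stk32a, Ldlrad3 and Ank (6 each). None of these held a reverse bin, and neither did most other coding genes.

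Msi2 (ENSMUSG00000069769.13, chr11:88339382-88718513, minus strand) held the largest cluster, with 29 of its 39 eligible bins, from 53.5 to 373.5 kb after the gene start. The cluster was not unbroken, since the bins at 63.5, 73.5, 83.5 and 133.5 kb were not in the set. Over the 29 bins methylation was 47.4% ± 4.31 in IFC and 52.7% ± 7.67 in SO, against 82.8% ± 3.05 in SOA and 81.0% ± 0.13 in IV. The IFC pools read 52.7, 46.2, 48.2 and 42.4%, and the SO pools 52.7, 53.3, 64.9, 44.5 and 48.3%. Pools of SOA read 87.3, 81.8, 81.5 and 80.6%, and those of IV 80.8, 81.0 and 81.0%, so that adult and prepubertal-origin pools did not overlap. The group means over the 100 kb on either side of the cluster (chr11:88340001-88670000) lay between 7.49 and 17.96%, below those of the cluster in every group. Single bins at its edges were higher than these means. The bin 43.5 kb after the gene start, not in the set, read 72.98% (IFC), 70.9% (SO), 86.3% (SOA) and 85.9% (IV), and the bin 383.5 kb after it 26.2, 25.03, 50.25 and 40.04%.

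Rbm47 encodes an RNA-binding protein known as a cofactor of C-to-U editing of mRNA. The gene (ENSMUSG00000070780.11, chr5:66016549-66173118, minus strand) had 15 of its 17 eligible bins in the set, and the bin with the largest gap of all, chr5:66090001-66100000. In that bin the IFC pools read 28.8, 34.5, 52.3 and 42.3%, the SO pools 59.3, 8.33, 74.4, 30.2 and 37.3%, the SOA pools 97.1, 100, 89.7 and 93.9%, and the IV pools 91.3, 91.1 and 93.5%. Over the 15 bins IFC read 41.6, 37.1, 41.2 and 46.3% and SO 53.1, 43.5, 66.7, 36.3 and 30.1%. SOA read 86.4, 79.5, 76.8 and 80.2% and IV 78.1, 79.2 and 78.7%. SO varied most here, with an SD of 14.4 points against 0.54 in IV, and SO3 was the SO pool nearest to the adults. The cluster, chr5:66000001-66210000, ran on to 9130230L23Rik, the next coding gene, and held 18 bins in all.

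Fer1l6, a member of the ferlin family of membrane proteins with C2 domains, had 14 of its 15 eligible bins in the set (ENSMUSG00000037106.8, chr15:58510048-58665092, plus strand). Its bins were low in IFC (21.6, 23.2, 23.6 and 17.4%) and in SO (22.0, 16.9, 26.5, 17.1 and 12.1%). They were intermediate in SOA (52.7, 51.8, 44.6 and 42.5%) and in IV (60.04, 43.1 and 42.4%), where IV1 was the highest pool. Without IV1 the other IV pools still lay above every prepubertal-origin pool. The cluster (chr15:58520001-58740000, 18 bins) passed the end of the gene, and its bins with the largest gaps, chr15:58720001-58730000 (49.6 points) and chr15:58710001-58720000 (43.2 points), lay in no coding gene.

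Akap6 encodes an anchoring protein for protein kinase A. Of its 36 eligible bins 13 were in the set (ENSMUSG00000061603.8, chr12:52699383-53155599, plus strand), in the first 245.6 kb of the gene and across its start. Here IFC was the lowest group, at 11.6, 11.9, 16.5 and 15.5%, and SO lay between it and the adults, at 28.9, 20.8, 30.3, 22.5 and 19.0%. SOA read 57.01, 53.2, 46.1 and 39.4% and IV 46.7, 47.7 and 42.4%. The other eligible bins of the gene read 7.87% (IFC), 12.5% (SO), 20.9% (SOA) and 22.7% (IV).

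**Figure D5:**
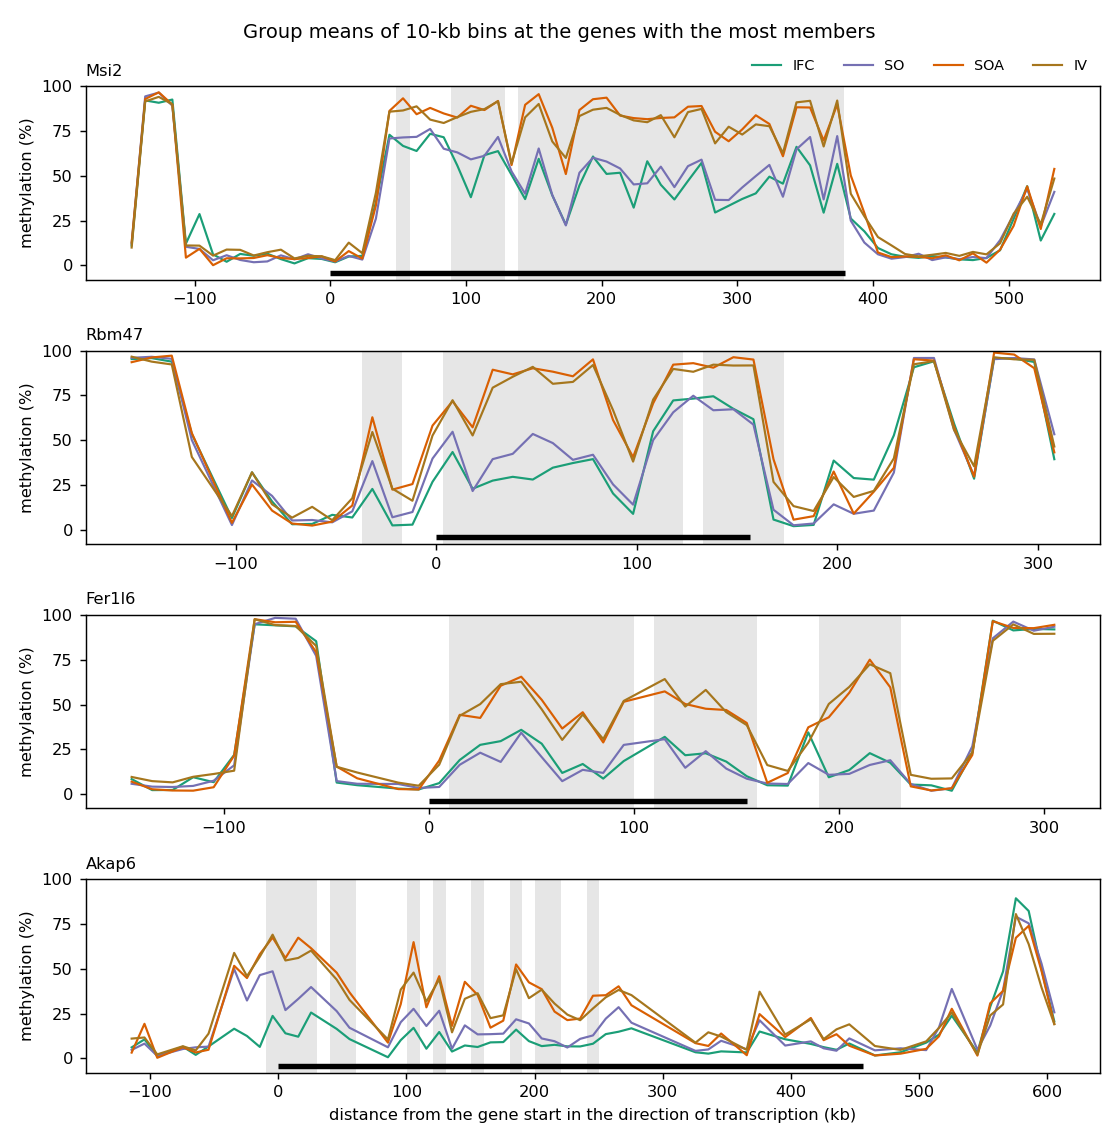
Group means (%, y axis) of 10-kb bins at Msi2, Rbm47, Fer1l6 and Akap6 by distance from the gene start in the direction of transcription (x axis, kb). Black bars are the genes and grey bands the bins of the set. In the grey bands of Msi2 the adult lines have means of 82.8 and 81.0%, against 47.4 and 52.7% for IFC and SO, and in Akap6 the SO line (24.3%) runs between IFC (13.9%) and the adults (48.9 and 45.6%).

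In the other named genes the values below cover only the bins of the set, and the mean over all eligible bins of the gene follows them. SO was between IFC and the adults in several of these. In 9 of the 42 eligible bins of Etl4, a gene of the developing notochord and intervertebral disc, IFC read 29.0, 22.9, 24.4 and 21.6%, SO 47.6, 49.7, 57.5, 47.1 and 47.1%, SOA 73.9, 73.7, 68.6 and 68.8%, and IV 74.6, 76.2 and 66.7%, so that IFC, SO and the adults did not overlap. All eligible bins of Etl4 read 24.8% (IFC), 39.4% (SO), 46.2% (SOA) and 47.6% (IV). In 7 of the 96 bins of Camta1, a calmodulin-binding transcription activator, IFC was at 16.01% ± 4.47, SO at 33.4% ± 10.2, SOA at 60.3% ± 5.03 and IV at 56.3% ± 3.48, while the whole of Camta1 read 36.8, 38.5, 42.5 and 42.0% in the same order. In 9 of 27 bins Mapk10, which encodes the JNK3 kinase, read 26.9% ± 2.52 (IFC), 41.1% ± 8.69 (SO), 67.1% ± 7.09 (SOA) and 66.5% ± 1.70 (IV), and over all its bins 46.8, 59.6, 75.04 and 73.6%. In 8 of the 104 bins of Cdh13, the GPI-anchored T-cadherin, SO (36.2% ± 7.33) was not above IFC (39.02% ± 4.34), and both lay below SOA (66.9% ± 4.50) and IV (64.0% ± 4.14). Over all bins of Cdh13 that order turned, with SO at 43.9% above IFC at 39.7%, and SOA and IV at 50.6 and 50.04%. In 6 of 14 bins Ank, a membrane protein of pyrophosphate transport, was high in IFC (70.99% ± 9.33) and SO (67.7% ± 6.06) too. It read 92.2% ± 2.82 in SOA and 89.1% ± 0.67 in IV, and the whole gene 69.2, 66.8, 83.2 and 81.4%. In 8 of 54 bins Frmd4a, a scaffold protein of cell polarity, went from 51.7% ± 3.08 in IFC and 57.1% ± 6.18 in SO to 82.2% ± 4.43 and 82.1% ± 1.93 in SOA and IV, and over all its bins from 35.7 and 37.2% to 47.9 and 49.1%. The kinase gene Stk32a (6 of 11 bins) was at 18.9% ± 3.46, 29.9% ± 3.63, 54.2% ± 6.98 and 51.5% ± 6.46 in IFC, SO, SOA and IV, and Ldlrad3, an LDL receptor family gene (6 of 24 bins), at 48.4% ± 2.78, 58.4% ± 7.46, 81.3% ± 3.77 and 80.2% ± 1.09. All bins of Stk32a read 17.5, 26.4, 41.9 and 43.2%, and all bins of Ldlrad3 50.5, 60.3, 74.0 and 73.2%. Over the bins of the set every adult pool was above every prepubertal-origin pool in each of the 12 genes, which the choice of bins favours. Over all eligible bins this did not hold in Camta1, where SO3 (41.5%) was above SOA4 (40.01%) and IV3 (40.2%), or in Cdh13, where SO3 (46.4%) and SO1 (45.6%) were above SOA4 (45.5%).

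Other clusters held no coding gene. The largest of these was chr11:108970001-109120000 with 12 of 13 eligible bins, 19.2 kb from Axin2, a negative regulator of Wnt signalling, at 25.2% ± 3.44 (IFC), 24.6% ± 2.82 (SO), 54.5% ± 5.198 (SOA) and 58.1% ± 6.52 (IV). The cluster chr2:158880001-159020000 (10 bins) began 21.8 kb from Dhx35, and chr15:74050001-74230000 (9 bins) lay 210.1 kb from Gm6569, the nearest coding gene. On chromosome 7, all 9 eligible bins of chr7:43920001-44020000 were in the set, across the kallikrein serine protease genes Klk15, Klk1b8, Klk1b1, Klk1b9, Klk1b11 and Klk1b26, with means of 19.4% ± 2.76, 23.5% ± 9.28, 58.5% ± 3.04 and 56.4% ± 3.10 in IFC, SO, SOA and IV. These genes are close paralogs, so calls may be divided among copies. Of single bins, chr15:40660001-40670000 in Zfpm2, a cofactor of GATA factors, had a gap of 48.9 points and read 16.9% ± 10.1 (IFC), 22.6% ± 12.3 (SO), 71.5% ± 9.67 (SOA) and 78.9% ± 7.71 (IV). Another, chr14:49230001-49240000 in ccdc198, had a gap of 45.02 points. In each of the 10 bins with the largest gaps, every adult library was above every library of prepubertal origin. Choosing bins by their gap favours this separation, which was present in 41.2% of the bins of the set and 0.401% of all eligible bins.

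A set of 8 gene lists were read over all their eligible bins, beside 431 of 76588 (0.563%) for all coding genes. The genes of the DNA methylation machinery held 0 of 88 bins, enzymes of histone H3K4 and H3K36 methylation 0 of 126, oocyte and maternal-effect genes 0 of 60, hormone receptors and follicle signalling genes 0 of 317, and host genes of maternal imprints 0 of 148. At the share of all coding genes, lists of these sizes would hold few or no such bins. Their counts of 0 therefore do not show that these genes were spared. Axon guidance and synaptic adhesion genes held 4 of 768 (0.521%), all in Nrxn3, a presynaptic neurexin. Glutamate and GABA receptor genes held 6 of 356 (1.69%): 4 in Grin2b and 1 in Grin2a, both subunits of NMDA receptors, and 1 in Grid1, a delta receptor. Over the 4 Grin2b bins IFC was at 26.3% ± 5.001, SO at 38.9% ± 10.3, SOA at 58.8% ± 6.72 and IV at 58.3% ± 8.40. Reverse bins were more frequent than bins of the set in both lists, with 14 of 768 (1.82%) for axon guidance and synaptic adhesion and 8 of 356 (2.25%) for the receptors, 5 of these in Grid1, against 805 of 76588 (1.05%) for all coding genes. The imprint hosts held 1 reverse bin and the other 4 of these lists 0. The median gap over all bins of a list lay between -4.09 and -2.99 points, against -3.26 over all coding genes. Genes that the study or earlier results of these data named held 78 of 781 bins (9.99%) and 104 reverse bins (13.3%), the 78 in Msi2, Rbm47, Akap6, Etl4, Cdh13, Myo16, Sox5 and Sfi1, and since they were chosen on these samples their count is not independent evidence. The bin in Sfi1, a centrosome gene, (chr11:3140001-3150000) held 20013 calls, and its excess over the usual number was not explored. It read 40.2% ± 1.87, 41.6% ± 2.48, 60.3% ± 3.76 and 57.9% ± 3.34 in IFC, SO, SOA and IV.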

How the data were processed

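CpG methylation was measured by PBAT in 16 libraries, each from 1 pool of MII oocytes. The submitters' processing notes name Trim Galore 0.4.4, cutadapt 1.9.1, Bismark 0.19.0 and the GRCm38 build, and the authors state that reads were mapped with Bismark and duplicates removed. The deposited files give, for each covered position and strand, methylated call counts, unmethylated call counts and the percent of calls that were methylated, without normalization. Positions that are not CpGs of the reference made up 0.664 to 2.36% of a library and were kept. Most positions had a single call, so counts were summed in 10-kb bins.

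Members and gene lists were chosen with earlier results of these data known. The genes named were the 12 coding genes with the most member bins, genes at the 8 clusters with the most members, genes in the 10 bins with the largest gap, and list genes with a member. Genes named for holding both kinds of bin, or as the nearest gene to a cluster, were chosen after their values were seen. X chromosome bins were kept apart. Bins were compared by a likelihood-ratio test of a logistic model of the calls (group as the only term, libraries of both groups only), with Benjamini-Hochberg adjustment. The test was tried on simulated calls that had no spread between pools. Such a trial cannot show how it performs on these pools, which do spread. The window sequences and reference CpGs came from GRCm38.p6 and genes from GENCODE M21. Alternatives were other limits, depths, grids, libraries and tests, limma among them, and the replicate number as a block. An alternative leaving out bins of 3000 calls or more was chosen after seeing the data. Software versions were Python 3.11.15, numpy 2.4.6, pandas 2.3.3, scipy 1.17.1, R 4.3.3, limma 3.58.1 and matplotlib 3.10.9.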

Additional observations from a re-analysis of the deposited data

Results flagged for a closer look

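Over the bins of the set and the bins of each of the 12 named genes, the IFC, SO and SOA pools were searched for a pool far from its group, in 39 sets of values. Chance alone puts about 1 in 20 such sets over the limit. The search found 1, the bins of Etl4 in SO, where SO3 stood at 57.5% and the other SO pools between 47.1 and 49.7%. SO3 was also the highest SO pool over all 934 bins, without passing the limit there.

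The X chromosome was outside the choice of autosomal bins. Of its 2943 eligible bins, 32 (1.09%) met the same limit with the adults higher, and 32 met it with the adults lower.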

How the results depend on the processing

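The number of bins followed the limits set. It was 2206 with 10 points and 451 with 20 points. With at least 20 calls it was 398 of 57032 eligible bins (0.698%), a share close to the 0.735% of the main choice. With 20-kb bins it was 589 of 105166 (0.560%). Only the shallow libraries gave 2837 of 127128 (2.23%), and only the deep ones 2733 of 226109 (1.21%). This deep count covers all bins eligible in the deep libraries, while the smaller one given earlier was limited to bins eligible in every library. Under the other alternatives the number was within 1.5 times 934, and 828 to 1110 with a library left out. The share beside another member fell to 38.4% with at least 20 calls, where fewer bins were eligible, and was 43.0 to 47.6% with a library left out. The share in coding genes rose to 53.5% with at least 20 calls, beside 70.3% of all eligible bins at that depth, and was 45.2 to 47.3% with a library left out. Members in clusters of at least 3 were 336 to 468 with other linking distances.

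Counts of called bins depended on the test. With the quasi-binomial F test they were 37 (SO vs SOA), 0 (IFC vs IV), 0 (IFC vs SO) and 0 (SOA vs IV), and 2017, 4035, 1369 and 184 at an unadjusted p below 0.05. With limma they were 536, 2007, 119 and 0 in the same order, the last beside 408 at an unadjusted p below 0.05. With the adjusted p alone the likelihood-ratio test gave 11434, 18137, 7103 and 10846, of which SO was lower in 4696, IFC in 10615, IFC in 3857 and SOA in 8598, so that the balance of directions turned in SO vs SOA and in SOA vs IV. With at least 20 calls it gave 991, 1910, 650 and 154. With a library left out, SOA vs IV gave 415 to 988, beyond 1.5 times 412 without SOA4 (988), IV2 (679) or IV3 (646). The other comparisons gave 2261 to 2900, 4829 to 5179 and 1492 to 1827. In this order the replicate block gave 2324, 4469, 1536 and 437. The replicate numbers were read from the sample titles, and whether they pair the libraries is not known. Same-numbered libraries had correlations of their deviations between -0.05 and 0.08, and 6 of 8, 1 of 6, 5 of 8 and 2 of 6 libraries were closest to their own number. In SO vs SOA they were 0.0063 to 0.0353, against -0.0245 to 0.0185 for different numbers. In IFC vs SO they were 0.0076 to 0.0812, against -0.0486 to 0.0309.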
